A study of Homo sapiens with 12 samples.

Results

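The proteasome genes are the genes of the count table named PSMA to PSMG followed by a number, with at least 10 counts in at least 3 samples. All 46 names of that form met the count rule, out of 32077 genes in the table. They comprised 9 subunits of the base, 8 of the lid, 7 alpha and 7 constitutive beta subunits of the core, 3 inducible beta subunits of the immunoproteasome, 5 activators and inhibitors and 7 assembly factors. RNA-seq was carried out on libraries labelled PC3 and DU145, the names of established lines of androgen-independent prostate cancer. Each line, labelled wild type, received vehicle or 2.5 μM pentamidine for 48 hours, with 3 samples in each of the 4 groups and 12 in all. Pentamidine is an aromatic diamidine used against protozoal infection and Pneumocystis pneumonia. RNA with a poly(A) tail was sequenced as paired reads. Neither the labels nor the methods say whether the 3 samples of a group came from separate cultures, so the p-values below measure the spread between these samples, which may be technical.

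The proteasome is the large protease that degrades proteins tagged with ubiquitin. Its barrel-shaped core is built of alpha rings, which gate the entrance, and beta rings, which hold the catalytic sites, and a regulatory particle made of a base and a lid caps the barrel, binds ubiquitin and unfolds the substrate. In cells exposed to interferon, PSMB8, PSMB9 and PSMB10 replace the constitutive catalytic subunits PSMB5, PSMB6 and PSMB7, and this immunoproteasome favours peptides that fit MHC class I.

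Total counts ranged from 13514195 to 15131436 per sample. Mitochondria-encoded genes took 3.79% to 3.91% of the counts in vehicle-treated PC3 samples and 2.66% to 2.76% after pentamidine treatment. In DU145 samples they took 4.41% to 4.66% and 1.97% to 2.07%. Of the markers used to check the labels, the epithelial genes EPCAM and CDH1 and the prostate gene KLK3 had at most 10 counts in any of the 12 samples. KRT8 was at 16.1 to 21.4 CPM (counts scaled to a common library total) in the samples labelled PC3 and at 1817 to 2795 CPM in those labelled DU145. KRT18 was at 144 to 208 CPM and at 685 to 941 CPM, respectively. RB1 was at 79.9 to 95.2 CPM and 74.7 to 83.6 CPM. The near absence of EPCAM and CDH1 goes against what is known of these lines. According to the methods, the lines came from ATCC and their identity was checked by short tandem repeat profiling. PC3 and DU145 stand below for the libraries that carry those labels, and the identity of the cells was not tested further here.

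The counts of 6 members could be shared with other genes. In GENCODE release 29, PSMA1, PSMA2, PSMA6, PSMB10 and PSMD9 share 58.3% to 97.1% of their coding bases with another protein-coding gene on the same strand, and their median counts over the 12 samples were 26.5 to 185.5. More than 50% of the coding bases were shared in this way for 10.9% of the proteasome genes and for 4.58% of 17003 protein-coding genes. Across all protein-coding genes the median count was 16 for genes over that limit and 212.5 for the others. The sixth member, PSMC1, an ATPase of the base, had a median count of 139.5, and the 7 copies of it found in the table together held 219% of its own counts. Since the counting program and its treatment of reads that fit more than 1 gene are not given in the sources used here, the levels of these 6 members are uncertain. PSMB8 and PSMB9 lie beside each other on chromosome 6 and overlap on opposite strands. PSMC1 shares 75.8% of its exon bases and 47.7% of its coding bases with a gene on the opposite strand. Counting is not stated to use the strand, so the counts of these genes could be affected by such overlap too, which was not tested.

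**Figure D1:**
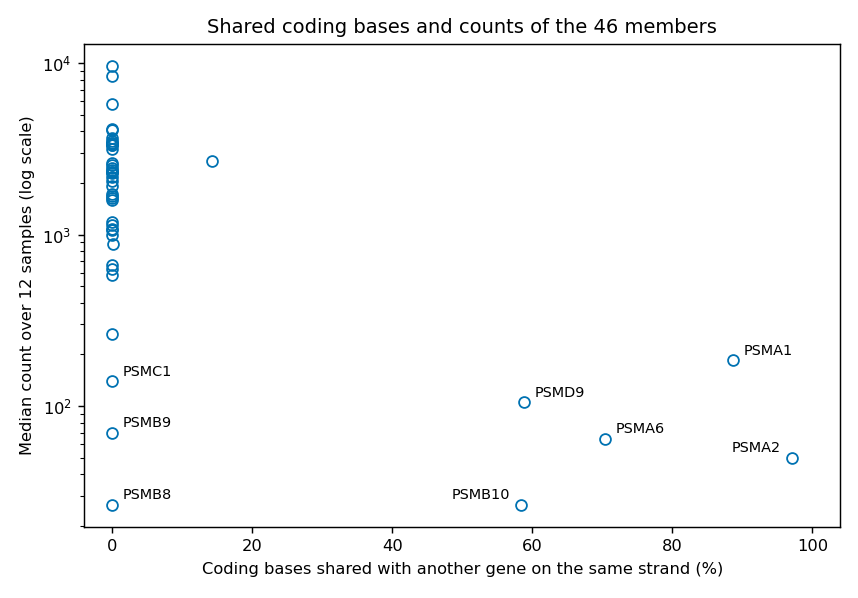
Median count over the 12 samples (log scale) against the percentage of each member's coding bases shared with another gene on the same strand. PSMA1, PSMA2, PSMA6, PSMB10 and PSMD9 lie beyond 50% with median counts of 26.5 to 185.5. PSMB8, PSMB9 and PSMC1 are low without coding bases shared on the same strand, and overlap on the opposite strand is not shown.

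Many proteasome genes carry an antioxidant response element, the site bound by the transcription factors NFE2L1 and NFE2L2, both of which are measured below. The core of this element was searched as TGANNNNGC on both strands of RefSeq promoters of GRCh38.p14, which run from 250 bases before to 50 bases after the start. Promoters were found for 40 of the 46 members, and 24 of these 40 (60%) held the core, against 42.1% of 27305 promoters. Of the 18 members that were lower in both lines, 12 held it. The parts of 5 promoters that lie outside the gene are shown 5′ to 3′ in the direction of the gene, with each match in capitals, because they belong to the largest fall in PC3 (PSMD1), to a fall that differed between the lines (PSMD3), to a catalytic subunit (PSMB5), to the member with the most matches in the part shown (PSMA5) and to a member that rose in PC3 (PSMF1). They lie at chr2:231056617-231056863 on the plus strand, chr17:39980557-39980796 on the plus strand, chr14:23035231-23035470 on the minus strand, chr1:109426449-109426698 on the minus strand and chr20:1113013-1113262 on the plus strand.
PSMD1: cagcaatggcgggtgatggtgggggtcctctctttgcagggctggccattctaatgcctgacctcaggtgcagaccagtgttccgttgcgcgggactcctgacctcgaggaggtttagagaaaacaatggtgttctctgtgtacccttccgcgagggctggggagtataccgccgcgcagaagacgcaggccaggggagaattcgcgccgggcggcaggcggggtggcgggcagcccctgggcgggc
PSMD3: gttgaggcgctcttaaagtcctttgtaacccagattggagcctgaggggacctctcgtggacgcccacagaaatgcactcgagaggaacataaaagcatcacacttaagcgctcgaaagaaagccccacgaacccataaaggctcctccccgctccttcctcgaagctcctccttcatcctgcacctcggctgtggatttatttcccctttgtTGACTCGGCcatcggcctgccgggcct
PSMB5: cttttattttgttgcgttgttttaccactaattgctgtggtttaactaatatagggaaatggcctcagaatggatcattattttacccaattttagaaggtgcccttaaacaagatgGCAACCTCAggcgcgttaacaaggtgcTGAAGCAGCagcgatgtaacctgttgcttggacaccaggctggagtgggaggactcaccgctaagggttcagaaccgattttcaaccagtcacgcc
PSMA5: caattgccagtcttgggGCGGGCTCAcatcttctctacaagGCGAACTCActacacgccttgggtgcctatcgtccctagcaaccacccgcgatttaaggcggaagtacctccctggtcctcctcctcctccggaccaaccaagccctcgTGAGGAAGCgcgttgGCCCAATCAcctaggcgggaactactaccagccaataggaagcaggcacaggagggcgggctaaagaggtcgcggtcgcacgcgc
PSMF1: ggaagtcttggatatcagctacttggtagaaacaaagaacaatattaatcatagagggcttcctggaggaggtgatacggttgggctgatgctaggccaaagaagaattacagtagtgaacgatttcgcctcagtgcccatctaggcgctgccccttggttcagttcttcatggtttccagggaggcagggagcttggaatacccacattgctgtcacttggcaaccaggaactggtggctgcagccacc
PSMB5 held 2 matches, which began 123 and 96 bases before the outermost annotated start of the gene, not the RefSeq start. PSMD3 held 1, which began 27 bases before the outermost start of that gene, and PSMA5 held 4. The parts shown of PSMD1 and PSMF1 held none, although a match of PSMD1 lies in the remainder of its window. An interferon-response sequence, GAAANNGAA, was present in 17.5% of the members' promoters and 8.29% of all promoters, and the gamma-activated site TTCNNNGAA in 10% and 7.88%. The CCAAT box was present in 45% and 35.7%. A match describes the letters of the promoter and not the binding of a factor.

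To examine whether the proteasome genes changed with pentamidine in PC3 cells, the 6 PC3 samples were compared by the quasi-likelihood test of edgeR, with p-values adjusted by Benjamini-Hochberg over 13861 genes and calls at an adjusted p below 0.05. All 46 members were tested. Of these, 21 were lower after pentamidine treatment, where 21.7% of all genes tested were lower, and 3 were higher, where 21.7% of all genes were higher. The other 22 were not called. The median log2 fold change was -0.13 over the members and 0.0046 over all genes tested. No member passed an absolute log2 fold change of 1, which 4.75% of all genes did together with the adjusted p, and none did so at an unadjusted p below 0.05. Treated and untreated samples were fully separated for 23 members in the lower direction (26.1% of all genes) and 3 in the higher direction (26.1% of all genes). Since bulk RNA was measured relative to the library total, fewer cells of a type and less RNA per cell cannot be told apart. Without the 6 members whose counts could be shared, an alternative chosen after the data were seen, 18 of 40 were lower and 2 were higher.

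In the base, the part of the regulatory particle that unfolds substrates, 6 of 9 members were lower in PC3, with a median log2 fold change of -0.37. PSMD1, a large scaffold subunit of the base at chr2:231056864-231172827, was at 281, 281 and 274 CPM in the vehicle samples and at 173, 177 and 177 CPM after pentamidine treatment. The groups lay far apart, and the log2 fold change was -0.66 ± 0.047 (SE, adjusted p = 5.9e-09, edgeR), so that the level fell to 0.633 of vehicle. PSMD2, the companion scaffold that docks ubiquitin shuttle proteins, was at 668, 641 and 701 CPM in vehicle and at 479, 489 and 501 CPM with pentamidine, again without overlap. Its log2 fold change was -0.45 ± 0.048 (SE, adjusted p = 1.0e-06, edgeR). The ATPases PSMC2 and PSMC6 were lower by similar amounts, with log2 fold changes of -0.39 and -0.40. PSMC1 had a log2 fold change of -0.37 ± 0.13 (SE, adjusted p = 0.0266, edgeR) on 102 to 147 counts per sample, and the call was lost in DESeq2 (adjusted p = 0.0731) and when either of vehicle replicates 2 and 3 or of pentamidine replicates 1 and 3 was left out (adjusted p up to 0.0918, edgeR). By contrast, the ubiquitin receptor PSMD4 had 240, 242 and 274 CPM in vehicle and 249, 264 and 239 CPM with pentamidine, with overlapping groups and a log2 fold change of -0.0026.

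In the lid, which removes ubiquitin chains before degradation, 5 of 8 members were lower in PC3 and the median log2 fold change was -0.25. PSMD11, which ties the lid to the core, was at 222, 230 and 229 CPM in vehicle and at 161, 152 and 145 CPM with pentamidine. The groups did not overlap, and the log2 fold change was -0.57 ± 0.053 (SE, adjusted p = 1.9e-07, edgeR). PSMD3, a structural subunit of the lid, was at 321, 307 and 336 CPM and at 236, 240 and 227 CPM, a log2 fold change of -0.45 ± 0.051 (SE, adjusted p = 1.6e-06, edgeR). PSMD6, another structural subunit, was the smallest of the falls that were called in the lid, with a log2 fold change of -0.20 ± 0.059 (SE, adjusted p = 0.00914, edgeR). Its call was lost without pentamidine replicate 1 (adjusted p = 0.055). PSMD14, the deubiquitinase of the lid, had a log2 fold change of -0.04 and PSMD8 of 0.08, and neither was called.

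In the core, 5 of the 7 alpha subunits were lower in PC3 with a median log2 fold change of -0.29, against 3 of the 7 constitutive beta subunits with a median of -0.12. Among the alpha subunits, PSMA3 was at 117, 124 and 124 CPM in vehicle and at 95.9, 96.9 and 95.5 CPM with pentamidine (log2 fold change -0.34 ± 0.053, SE; adjusted p = 7.2e-05, edgeR). PSMA4 had a log2 fold change of -0.29 ± 0.054 (SE, adjusted p = 0.000307, edgeR), and the vehicle and pentamidine samples of both genes did not overlap. PSMA2 had the largest value of the class, -0.54 ± 0.19 (SE, adjusted p = 0.03, edgeR), on 44 to 77 counts per sample, and its call was lost in DESeq2 and without vehicle replicate 1 or 2 or pentamidine replicate 1 or 3 (adjusted p up to 0.0939). PSMA7, which had the highest level per length of all members, was at 517, 598 and 648 CPM in vehicle and at 569, 601 and 552 CPM with pentamidine, and its groups overlapped. Of the beta subunits, PSMB2, PSMB3 and PSMB5 were lower, and PSMB1, PSMB4, PSMB6 and PSMB7 were not called. Without vehicle replicate 1, the lowest of the vehicle samples for both, PSMB6 (-0.14, adjusted p = 0.0398, edgeR) and PSMB7 (-0.15, adjusted p = 0.0171, edgeR) were called as lower. PSMB5, which carries the chymotrypsin-like site that proteasome inhibitors block, was at 163, 188 and 204 CPM in vehicle and at 155, 162 and 146 CPM with pentamidine. Its log2 fold change was -0.25 ± 0.072 (SE, adjusted p = 0.00833, edgeR), and the call was lost without pentamidine replicate 3 (adjusted p = 0.0561).

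The assembly factors and activators had medians near 0 in PC3, at 0.016 and -0.0045 on the log2 scale. Of the 7 assembly factors 1 was lower, PSMD5, a chaperone of the base, with a log2 fold change of -0.20 ± 0.059 (SE, adjusted p = 0.0117, edgeR) that was no longer called without vehicle replicate 2 (adjusted p = 0.0611) or pentamidine replicate 1 (adjusted p = 0.0894). The core chaperones PSMG1 to PSMG4 were not called, with log2 fold changes of -0.14 to 0.05. Of the 5 activators and inhibitors, PSME4, a nuclear activator that opens the core without ubiquitin, was at 127, 126 and 114 CPM in vehicle and at 96.8, 90.8 and 96.8 CPM with pentamidine. The groups did not overlap, and the log2 fold change was -0.36 ± 0.058 (SE, adjusted p = 7.6e-05, edgeR). PSMF1, which encodes the proteasome regulator PI31, was higher, at 146, 150 and 159 CPM in vehicle and 173, 172 and 162 CPM with pentamidine. The log2 fold change of PSMF1 was 0.16 ± 0.054 (SE, adjusted p = 0.0234, edgeR), and the call was lost without vehicle replicate 1 or 2 or pentamidine replicate 1 or 2 (adjusted p up to 0.104).

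**Figure D2:**
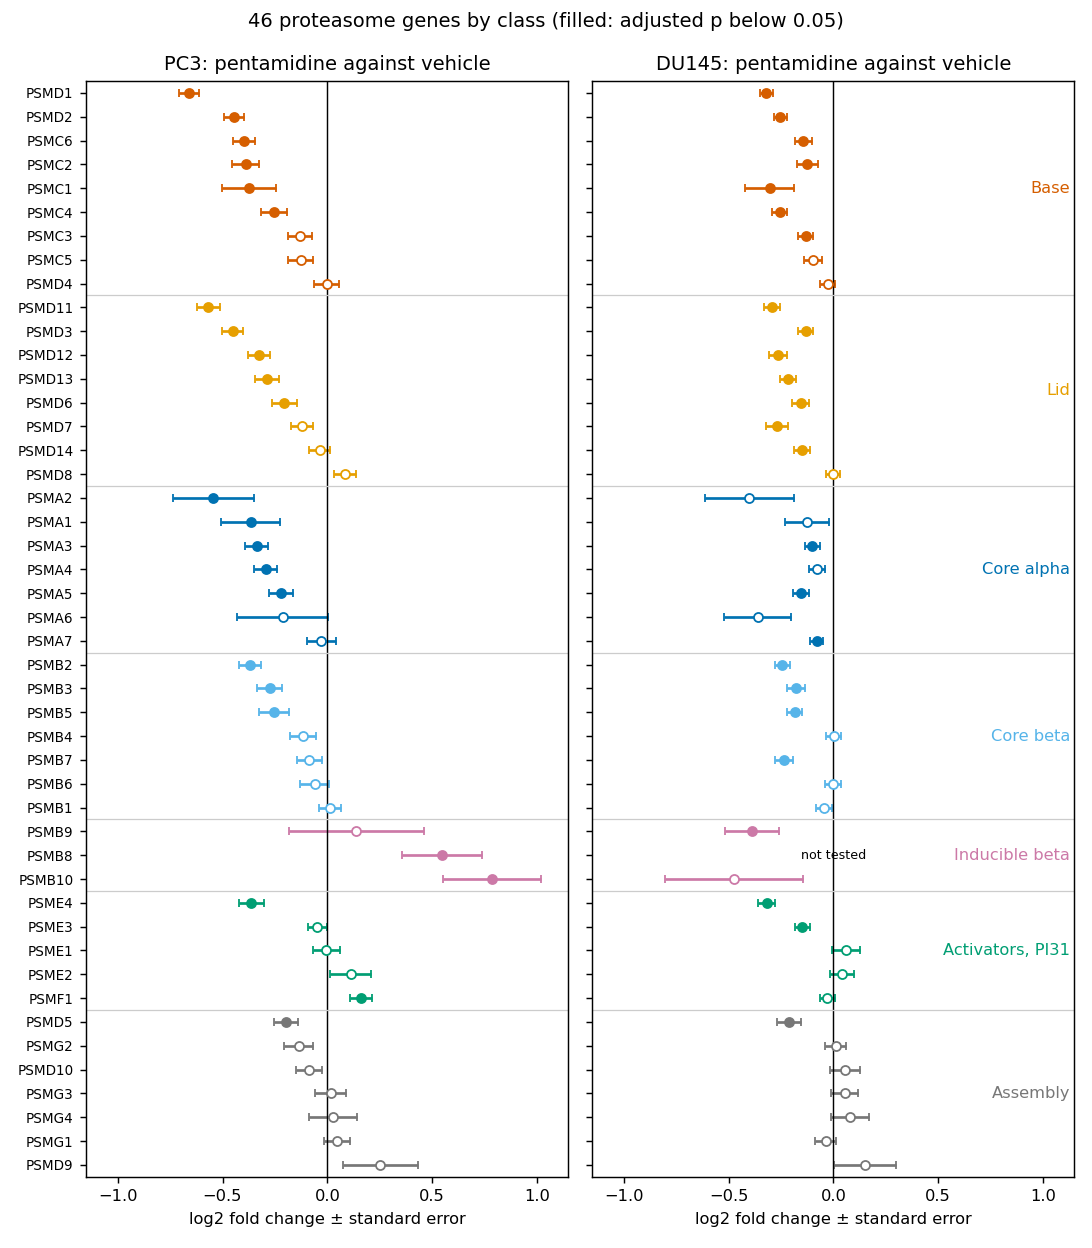
Log2 fold change of pentamidine against vehicle with its standard error for the 46 members, grouped by class and ordered by their value in PC3, in PC3 (left) and DU145 (right). Filled points have an adjusted p below 0.05, with 21 lower and 3 higher in PC3 and 25 lower in DU145, where PSMB8 was not tested.

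The same comparison in DU145 cells was made on 14313 genes. Of the 45 members tested, 25 were lower after pentamidine treatment, where 16.8% of all genes tested were lower, and 20 were not called. None was higher in edgeR's test, in DESeq2 or at an unadjusted p below 0.05, where 17.2% of all genes were higher. With scaling by library size alone, 18 members were lower, and the share of all genes that were lower under that scaling is not given here. In the reported fit the median log2 fold change was -0.14 over the members and 0.0085 over all genes tested. With library size alone both medians were higher. None passed an absolute log2 fold change of 1, against 2.03% of all genes, also at an unadjusted p below 0.05. The groups did not overlap for 25 members in the lower direction, against 22.1% of all genes, and for none in the higher direction, against 21.9%. Without the 6 members whose counts could be shared, 24 of 39 were lower.

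The base and the lid again held most of the falls in DU145, with 7 of 9 and 7 of 8 members lower and medians of -0.14 and -0.19. PSMD1 was at 313, 303 and 303 CPM in vehicle and at 246, 245 and 243 CPM with pentamidine, and the groups did not overlap. Its log2 fold change was -0.32 ± 0.033 (SE, adjusted p = 2.0e-11, edgeR), so that the level was 0.801 of vehicle. PSMD11 was at 178, 172 and 172 CPM and at 140, 144 and 142 CPM, a log2 fold change of -0.29 ± 0.037 (SE, adjusted p = 6.7e-09, edgeR). PSME4 was at 141, 149 and 151 CPM and at 116, 117 and 120 CPM, a log2 fold change of -0.32 ± 0.040 (SE, adjusted p = 4.8e-09, edgeR). For all 3 genes the samples of the 2 groups were fully separated. PSMC1 had a log2 fold change of -0.30 ± 0.12 (SE, adjusted p = 0.039, edgeR) on 127 to 179 counts, and the call was lost with library size alone, with no filter, in DESeq2 and without vehicle replicate 1 or 3 or pentamidine replicate 1 or 2 (adjusted p up to 0.169). The smallest falls called were those of PSMA7 (-0.08), PSMA3 (-0.10), PSMC2 (-0.12), PSMC3 (-0.13) and PSMD3 (-0.13). Under library size alone none of these 5 was called, with adjusted p of 0.0584 for PSMD3 to 0.482 for PSMA7 in edgeR's test. The first 3 were also lost when single samples were left out, which were vehicle replicates 2 and 3 and pentamidine replicates 2 and 3 for PSMA7 (adjusted p up to 0.262), vehicle and pentamidine replicate 2 for PSMA3 (up to 0.134), and vehicle replicates 2 and 3 and pentamidine replicates 1 and 3 for PSMC2 (up to 0.154). In the fit of all 12 samples these 3 were not called either (adjusted p = 0.274 for PSMA7, 0.0726 for PSMA3 and 0.0984 for PSMC2, edgeR). DESeq2 did not call PSMA3 (adjusted p = 0.0538) or PSMC2 (adjusted p = 0.0993), and PSMC2 was also lost with no filter (adjusted p = 0.056, edgeR).

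In the core of DU145 cells, 3 of 7 alpha and 4 of 7 constitutive beta subunits were lower, with medians of -0.13 and -0.18. PSMB7, which carries the trypsin-like site, was at 125, 124 and 114 CPM in vehicle and at 103.7, 103.5 and 100.1 CPM with pentamidine. The groups of PSMB7 did not overlap, and its log2 fold change was -0.24 ± 0.043 (SE, adjusted p = 1.3e-05, edgeR). PSMB5 was at 208, 208 and 199 CPM and at 183, 180 and 178 CPM (log2 fold change -0.18 ± 0.036, SE; adjusted p = 4.8e-05, edgeR). PSMB6, with the caspase-like site, was at 214, 229 and 221 CPM and at 229, 222 and 210 CPM, with overlapping groups. As in PC3, 1 of the 7 assembly factors was lower in DU145, PSMD5, and the core chaperones PSMG1 to PSMG4 had log2 fold changes of -0.04 to 0.08. Of the activators, PSME3 and PSME4 were lower, and PSME1 and PSME2, whose products form the interferon-inducible activator, had log2 fold changes of 0.06 and 0.04 and were not called.

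**Figure D3:**
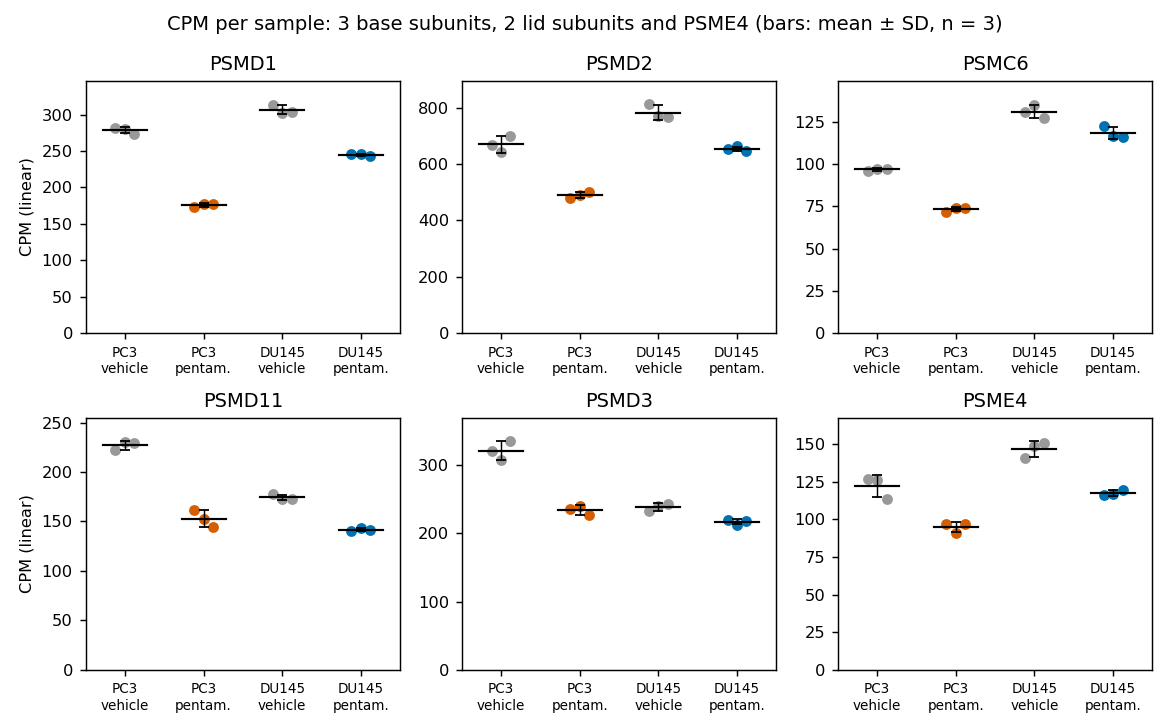
CPM per sample on a linear axis from 0 for PSMD1, PSMD2 and PSMC6 of the base, PSMD11 and PSMD3 of the lid, and PSME4, with the mean and SD of 3 samples per group. In each panel and each line, every pentamidine sample lies below every vehicle sample, and PSMD1 falls from 274 to 281 CPM to 173 to 177 CPM in PC3.

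Altogether 28 members were lower in at least 1 line. Of the 45 members tested in both lines, 18 were lower in both, which is 85.7% of the 21 falls in PC3 and 72% of the 25 in DU145. Among them, PSMA3, PSMC1 and PSMC2 had the unstable DU145 calls given above. The DU145 calls of PSMD3 and PSMC6 (adjusted p = 0.0647, edgeR) were lost with library size alone. In PC3, the calls of PSMB5, PSMC1, PSMD5 and PSMD6 were lost without single samples. The calls of PSMA5, PSMB2, PSMB3, PSMC4, PSMD12 and PSMD13 were not checked singly. Over all 13125 genes tested in both lines, 9.62% were lower in both. These 18 were PSMD1, PSMD2, PSMC1, PSMC2, PSMC4 and PSMC6 of the base, PSMD3, PSMD6, PSMD11, PSMD12 and PSMD13 of the lid, PSMA3 and PSMA5, PSMB2, PSMB3 and PSMB5, PSMD5 and PSME4. A further 3 were called in PC3 and not in DU145 (PSMA1, PSMA2, PSMA4), and 7 in DU145 and not in PC3 (PSMA7, PSMB7, PSMB9, PSMC3, PSMD7, PSMD14, PSME3). Across the 45 members, the log2 fold changes in the 2 lines had a Spearman rho of 0.507, against 0.467 across all 13125 genes. Across the members without shared counts, rho between log2 fold change and the number of coding bases was -0.42 in PC3 (40 genes) and -0.40 in DU145 (39 genes). With exon bases, rho was -0.36 and -0.28 over these members and -0.021 and -0.096 over all genes with a length. These are descriptions across genes of the same libraries, and genes are not independent replicates.

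The share of all counts that fell on the 46 members was 0.748% ± 0.032 (SD, n = 3) in vehicle-treated PC3 cells and 0.643% ± 0.014 (SD, n = 3) after pentamidine treatment. All 3 pentamidine samples lay below all 3 vehicle samples (exact permutation test, two-sided, p = 0.1, the smallest that 3 against 3 samples allow). In DU145 cells the share was 0.726% ± 0.010 (SD, n = 3) and 0.684% ± 0.011 (SD, n = 3), also without overlap (exact permutation test, p = 0.1). The difference was -0.104 percentage points in PC3 and -0.0421 in DU145. Since the mitochondria-encoded share fell with treatment, the shares were also computed without those genes, which gave differences of -0.116 and -0.0626 percentage points.

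Whether the response differed between the lines was tested as the interaction of line and treatment over all 12 samples and 15226 genes. Of the 46 members, 8 had a lower log2 fold change in PC3 than in DU145, where 10.3% of all genes did, and 2 had a higher one, where 10.2% of all genes did. The 8 were PSMD1, PSMD2, PSMC2 and PSMC6 of the base, PSMD3 and PSMD11 of the lid, and the alpha subunits PSMA3 and PSMA4. PSMD1 fell further in PC3 than in DU145 by a log2 difference of -0.34 ± 0.054 (SE, adjusted p = 2.7e-05, edgeR), and PSMD3 by -0.32 ± 0.059 (SE, adjusted p = 0.000224, edgeR). PSMD3 was at 232, 240 and 243 CPM in DU145 vehicle and at 220, 213 and 218 CPM with pentamidine, so that the treated PC3 samples (227 to 240 CPM) reached the level of untreated DU145 samples. PSMF1 (0.19) and PSMB10 (1.26) were the 2 with a higher log2 fold change in PC3. Leaving out single samples removed some of these calls. PSMC2 was lost without DU145 vehicle replicate 1 (adjusted p = 0.0509) and PSMD2 without DU145 vehicle replicate 2 or 3 (up to 0.0594). PSMB10 was lost without PC3 pentamidine replicate 3, DU145 vehicle replicate 1 or 2 or DU145 pentamidine replicate 3 (up to 0.0955). PSMA4 was lost without PC3 vehicle replicate 2, PC3 pentamidine replicate 3, DU145 vehicle replicate 1 or 3 or DU145 pentamidine replicate 2 (up to 0.0857). PSMF1 was lost without replicate 1 or 2 of PC3 vehicle, PC3 pentamidine or DU145 vehicle, or replicate 2 or 3 of DU145 pentamidine (up to 0.092), and with library size alone (0.18). Without DU145 vehicle replicate 1 the number called was 6. PSME4, which was lower in both lines, had a difference of -0.05 ± 0.070 (SE, adjusted p = 0.717, edgeR).

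**Figure D4:**
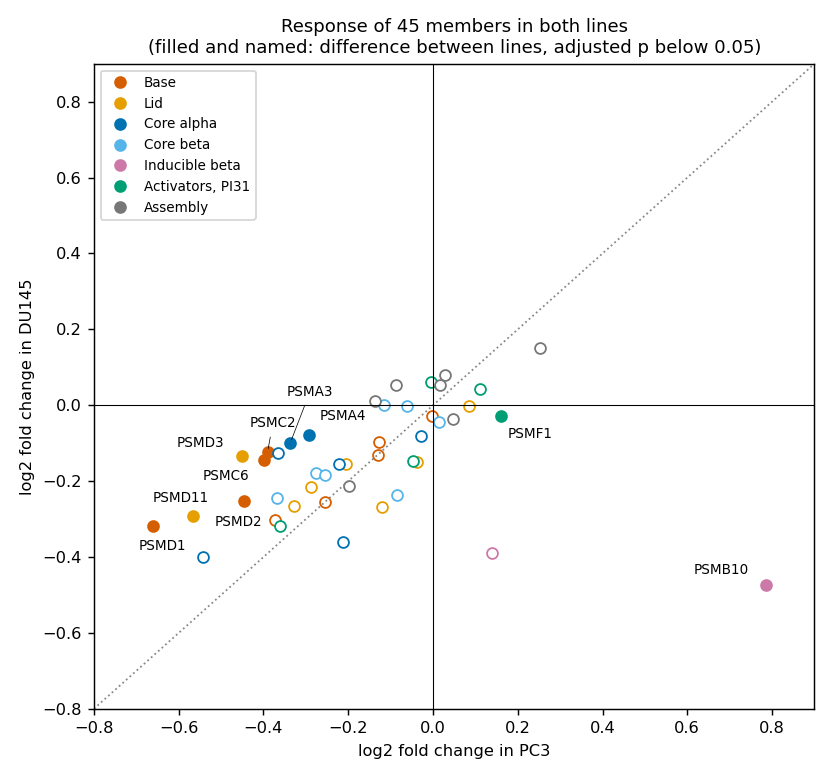
Log2 fold change in DU145 against that in PC3 for the 45 members tested in both lines, coloured by class, with a dotted line of equal response. The 10 filled and named genes differed between the lines; 8 of them lie above the dotted line with the larger fall in PC3, and PSMB10 lies at 0.79 in PC3 and -0.47 in DU145.

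The catalytic subunits of the immunoproteasome were scarce in both lines. PSMB8 was at 3.59, 2.92 and 4.35 CPM in vehicle-treated PC3 cells and at 4.59, 5.48 and 5.67 CPM after pentamidine treatment. The groups did not overlap, and the log2 fold change was 0.55 ± 0.19 (SE, adjusted p = 0.0274, edgeR) on 45 to 84 counts. The call was lost in DESeq2 (adjusted p = 0.0662) and without vehicle replicate 2 or pentamidine replicate 2 or 3 (adjusted p up to 0.129). PSMB10 was at 1.70, 2.20 and 2.88 CPM and at 3.71, 3.27 and 4.59 CPM, on 25 to 68 counts. Its log2 fold change was 0.79 ± 0.23 (SE, adjusted p = 0.0121, edgeR), the largest rise of the members in PC3, and the call was lost without pentamidine replicate 3 (adjusted p = 0.0743). PSMB10 is 1 of the members whose counts could be shared. PSMB9 was at 0.949, 2.40 and 1.77 CPM and at 1.49, 2.21 and 1.96 CPM with overlapping groups.

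In DU145 cells PSMB8 had 1, 5 and 8 counts in vehicle and 7, 8 and 3 counts with pentamidine, too few to be tested in that line. PSMB9 was the most abundant of the 3, at 11.3, 13.8 and 12.9 CPM in vehicle and at 11.5, 10.3 and 7.16 CPM with pentamidine. Its groups overlapped, and its log2 fold change was -0.39 ± 0.13 (SE, adjusted p = 0.0141, edgeR). The call of PSMB9 was lost in DESeq2 (adjusted p = 0.0588), in the fit of all 12 samples (adjusted p = 0.0839) and without vehicle replicate 2 (adjusted p = 0.0695) or pentamidine replicate 3 (adjusted p = 0.206). PSMB10 was at 2.09, 1.68 and 1.31 CPM and at 1.57, 1.36 and 0.695 CPM, with a log2 fold change of -0.47 ± 0.33 (SE) that was not called.

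Each inducible subunit was then set against the constitutive subunit whose place it takes, as a ratio of counts within a library. In PC3 the mean ratio of PSMB8 to PSMB5 was 1.94% in vehicle and 3.39% with pentamidine, without overlap (exact permutation test, p = 0.1, the smallest possible; adjusted over 6 tests, 0.2). PSMB10 to PSMB7 was 1.04% and 1.91% (exact permutation test, p = 0.1, adjusted 0.2), and PSMB9 to PSMB6 was 0.723% and 0.881% (exact permutation test, p = 0.7). In DU145 the ratio of PSMB9 to PSMB6 was 5.72% in vehicle and 4.31% with pentamidine (exact permutation test, p = 0.1, adjusted 0.2). PSMB8 to PSMB5 was 0.119% and 0.213% and PSMB10 to PSMB7 was 1.37% and 1.11%, both with p = 0.6 (exact permutation test). None of these 6 tests could reach 0.05, and the sign of the last 2 and of PSMB9 to PSMB6 in PC3 changed when a single sample was left out: DU145 vehicle replicate 1 (log2 difference -0.017), DU145 pentamidine replicate 3 (0.038) and PC3 vehicle replicate 1 (-0.014), respectively.

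**Figure D5:**
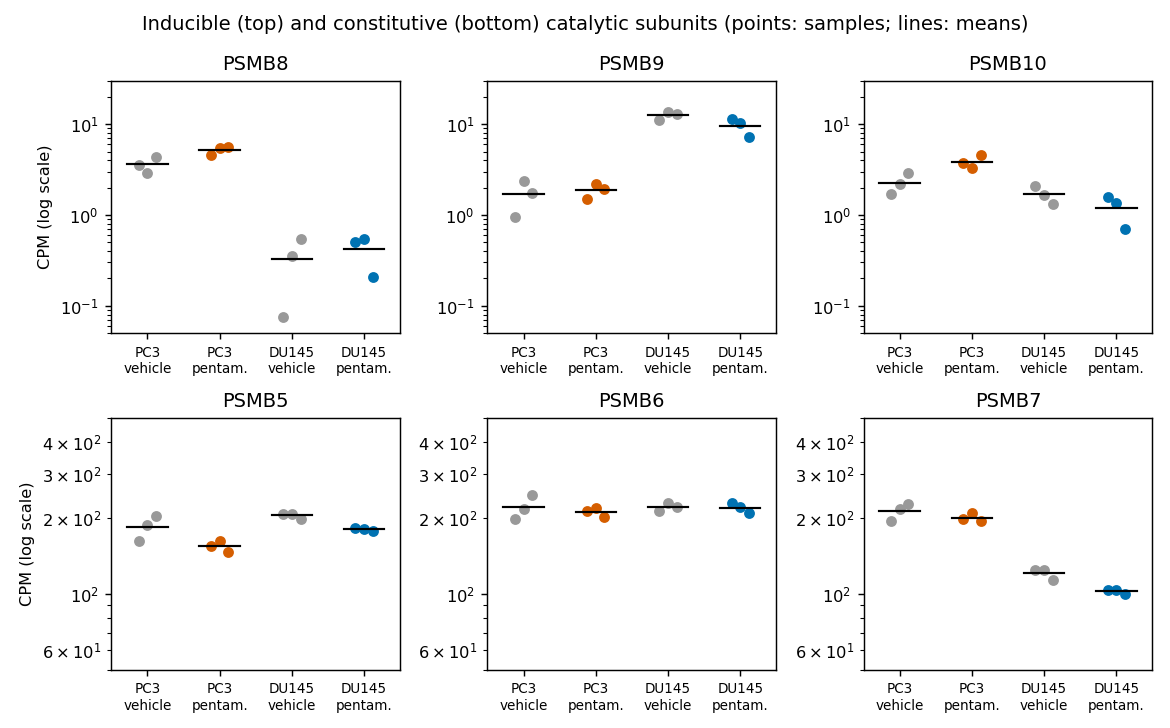
CPM per sample on a log axis for the inducible subunits PSMB8, PSMB9 and PSMB10 (top) and the constitutive subunits PSMB5, PSMB6 and PSMB7 (bottom), with a line at the mean of each group. PSMB8 lies between 2.92 and 5.67 CPM in PC3 and below 1 CPM in DU145, and PSMB9 is higher in DU145, whereas the constitutive subunits lie between 100 and 246 CPM throughout.

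The untreated lines were compared to give the starting levels. Of the 46 members, 16 were higher in PC3 than in DU145, where 31.5% of 14394 genes were higher, and 16 were lower, where 33.8% were lower. The largest differences belonged to the immunoproteasome. PSMB8 was higher in PC3 by a log2 fold change of 3.39 ± 0.39 (SE, adjusted p = 9.6e-07, edgeR). PSMB9 was lower by -2.91 ± 0.22 (SE, adjusted p = 5.3e-09, edgeR). PSMB8 had 53, 45 and 59 counts in PC3 vehicle and 1, 5 and 8 in DU145 vehicle, so its fold change rests on few counts. PSMB8 met the count rule for members through its PC3 samples alone. Its adjusted p is therefore not independent of that rule, and no conclusion is drawn from it. The base chaperones PSMD5 (1.176) and PSMD10 (1.081) were the other 2 past an absolute log2 fold change of 1. That made 4 of 46 members called past this limit, where 2768 of all 14394 genes tested were. PSMD5 was at 120, 129 and 117 CPM in PC3 vehicle and at 51.5, 53.1 and 55.1 CPM in DU145 vehicle, and PSMD10 at 64.0, 66.7 and 63.9 CPM and at 30.4, 27.97 and 32.0 CPM. PSMB7 was higher in PC3 (0.79), PSMB6 overlapped between the lines (-0.02), and PSMB5 was lower (-0.18, adjusted p = 0.0307, edgeR). The call of PSMB5 was lost with library size alone (adjusted p = 0.202) and without PC3 vehicle replicate 1 or 2 or DU145 vehicle replicate 1 or 2 (adjusted p up to 0.154).

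For levels between genes, CPM was divided by the kilobases of exon in GENCODE release 29, for the 40 members without shared counts. In vehicle-treated PC3 cells the levels ran from 0.56 (PSMB9) to 336 CPM per kilobase (PSMA7), with a median of 34.1. The constitutive beta subunits had a median of 133 CPM per kilobase, the base 55.5, the alpha subunits 38.8, the lid 32.8, the activators 28.7 and the assembly factors 24.0. In DU145 vehicle the medians were 116, 71.9, 46.7, 24.3, 20.6 and 16.0 CPM per kilobase, in the same order of classes. PSMA7 was at 336 ± 37.95 CPM per kilobase (SD, n = 3) in PC3 and 355 ± 2.44 (SD, n = 3) in DU145, and the next member in PC3, PSMB6, at 153 ± 16.4 (SD, n = 3). The levels of PSMB6, PSMB3 and PSMB4 (153, 150 and 150 CPM per kilobase) lay within the spread of their samples. Exon length counts bases of every annotated transcript, so genes with long minor transcripts appear lower on this scale.

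Partners and regulators outside the name pattern were described from a list of 17 genes found in the table. In PC3, 5 were higher and 4 lower, where 21.7% of all genes tested were called in each direction, and the median log2 fold change was 0.039. In DU145, 4 were higher and 8 lower, where 17.2% and 16.8% of all genes were, and the median was 0.0085. The 4 that were lower in PC3, which were also lower in DU145, were the ubiquitin receptor ADRM1 (-0.22 in PC3), the deubiquitinase UCHL5 (-0.35), the protease DDI2 (-0.25), which activates NFE2L1, and the segregase VCP (-0.25). NFE2L1, the transcription factor that raises proteasome genes when proteasome capacity is short, was at 287, 258 and 280 CPM in PC3 vehicle and at 483, 474 and 489 CPM with pentamidine. The groups were fully separated, with a log2 fold change of 0.81 ± 0.049 (SE, adjusted p = 6.9e-10, edgeR). In DU145 NFE2L1 was at 297, 275 and 275 CPM and at 288, 310 and 301 CPM, with overlapping groups and a log2 fold change of 0.09 ± 0.035 (SE, adjusted p = 0.0406, edgeR). That call was lost in RLE scaling, with no filter, in DESeq2, in the fit of all 12 samples and without vehicle replicate 2 or 3 or pentamidine replicate 2 or 3 (adjusted p up to 0.313). NFE2L2, its relative of the oxidative stress response, had log2 fold changes of 0.76 in PC3 and 0.20 in DU145, both called. The difference between lines was 0.72 for NFE2L1 (adjusted p = 1.6e-09, edgeR) and 0.56 for NFE2L2 (adjusted p = 1.3e-07, edgeR). AKIRIN2, which brings proteasomes into the nucleus, was higher in PC3 (0.38) and in DU145 (0.26). POMP, the maturation factor of the core, was at -0.04 on the log2 scale in PC3, called as lower only without vehicle replicate 1 (adjusted p = 0.0239), and was lower in DU145 (-0.27). PAAF1, a base chaperone, was higher in DU145 (0.35 ± 0.098, SE; adjusted p = 0.00379, edgeR) and had -0.0037 in PC3.

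Genes of MHC class I antigen processing, which share interferon control with the inducible subunits, were described from a list of 9. In PC3, 2 of the 8 tested were higher and 2 lower, near the 21.7% of all genes in each direction, and the median was -0.013 on the log2 scale. In DU145, 7 of the 9 were lower, where 16.8% of all genes were, the other 2 were not called, and the median was -0.26. TAP1, a subunit of the peptide transporter whose gene lies beside PSMB8 and PSMB9, was at 39.4, 37.6 and 40.8 CPM in PC3 vehicle and at 47.1, 44.5 and 48.2 CPM with pentamidine. In DU145 it was at 65.9, 71.1 and 66.0 CPM and at 50.4, 50.2 and 47.1 CPM. TAP1 was thus higher in PC3 (0.25 ± 0.068, SE; adjusted p = 0.00618, edgeR) and lower in DU145 (-0.45 ± 0.054, SE; adjusted p = 1.2e-09, edgeR), without overlap in either line. The log2 fold change of the interferon-response factor IRF1 was 0.02 in PC3, and it was lower in DU145 (-0.46 ± 0.11, SE; adjusted p = 0.000635, edgeR).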

How the data were processed

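RNA-seq counts of 12 libraries in 4 groups were analysed. According to the labels and methods, the authors aligned reads with HISAT2 2.1.0 to GRCh38 and tested genes with DESeq 1.18.1; the counting program and its use of strand are not given in the sources used here. The counts were deposited as whole reads per gene, without normalization. The authors' fold change tables (log2 fold change, p and adjusted p) and a table named FPKM were not used. Of 33639 lines, 44 broken continuation lines were dropped, and 1 of several entries with the same name and counts was kept, leaving 32077 genes. edgeR 4.0.16 (R 4.3.3, TMM, filterByExpr at 10 counts, quasi-likelihood test, Benjamini-Hochberg adjustment over all genes tested) was used, with calls at an adjusted p below 0.05, checked on simulated counts. The simulation gave every gene the same dispersion and changed only genes with higher counts. It therefore did not check the calls of members with low counts or a larger spread. CPM values are scaled by TMM factors over all 12 samples. Overlaps and lengths came from GENCODE release 29, promoters from RefSeq. Members, classes, lists and naming rules were chosen with earlier results of these data known. Named genes were the 6 catalytic subunits, the 5 largest and 5 smallest log2 fold changes called per line, up to 8 members differing between lines, the 4 largest differences between untreated lines, untested members, and the leading genes of the 2 lists; other genes were named after their values were seen, and the rest of the lists are given as counts. A few further genes were removed from the lists and are not reported here. Alternatives were RLE or library-size scaling, TMM without mitochondria-encoded genes, other filters, DESeq2 1.42.0, a replicate block, one fit of all 12 samples, stricter call rules, and each sample left out in turn. Depth was 13514195 to 15131436 counts, and limits from it cover counting error only.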

Additional observations from a re-analysis of the deposited data

Results flagged for a closer look

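The response to pentamidine was compared between PC3 and DU145 by the interaction of line and treatment in edgeR's quasi-likelihood test. It differed for 10 proteasome genes and for 5 of the regulators and antigen-processing genes named. A negative value is a lower log2 fold change in PC3 than in DU145. The values were -0.34 for PSMD1, -0.32 for PSMD3, -0.27 for PSMD11, -0.27 for PSMC2, -0.25 for PSMC6, -0.24 for PSMA3, -0.22 for PSMA4 and -0.19 for PSMD2. They were 0.19 for PSMF1 and 1.26 for PSMB10. Among the regulators they were 0.72 for NFE2L1, 0.56 for NFE2L2 and -0.35 for PAAF1 (adjusted p = 0.0279, edgeR). Among genes of antigen processing they were 0.71 for TAP1 and 0.47 for IRF1 (adjusted p = 0.0337, edgeR). Without single samples, the call was lost for IRF1 in 7 of 12 cases (adjusted p up to 0.0967) and with library size alone (0.0676), and for PAAF1 in 6 of 12 (up to 0.105), and for PAAF1 also in DESeq2 (0.0659) and with no filter (0.0915). TAP1 was called in opposite directions in the 2 lines.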

How the results depend on the processing

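Of 82 single-gene results, 45 kept their direction and their side of the threshold under every alternative run, 25 lost their call under at least 1, 5 gained one and 9 changed sign under at least 1. The number of members called stayed within 1.5 times the reported number under other scalings, filters, DESeq2 and one fit of all samples. With an absolute log2 fold change above 1 it was 0 in PC3, 0 in DU145, 4 between untreated lines and 1 for the difference in response. Over all genes tested, the same rule called 658 of 13861, 290 of 14313, 2768 of 14394 and 399 of 15226, in that order. With an adjusted p below 0.01, the number of members called for the difference in response was 5. Leaving out single samples gave counts of 18 to 28, 21 to 25, 30 to 35 and 6 to 11. Correlations of same-numbered samples were -0.16 to 0.045 in PC3 and -0.014 to 0.0025 in DU145. Those of differently numbered samples were -0.15 to 0.17 and -0.024 to 0.022, respectively. These values cannot show whether the replicate numbers paired the samples. With the replicate block the counts were 23, 25, 34 and 10, no call among the 82 single-gene results changed, and the shares differed by -0.104 and -0.0421 percentage points. The median log2 fold change of all members ranged from -0.19 to -0.11 in PC3 and from -0.17 to -0.13 in DU145 with samples left out. By class in PC3 it ranged from -0.41 to -0.33 (base), -0.37 to -0.24 (alpha), -0.19 to -0.066 (beta) and 0.48 to 0.69 (inducible), and in DU145 from -0.18 to -0.13 (base), -0.18 to -0.094 (alpha), -0.21 to -0.16 (beta), -0.22 to -0.17 (lid) and -0.061 to -0.0080 (activators). Without the members of shared counts, chosen after seeing the data, the PC3 medians of the base and the inducible subunits were -0.32 and 0.34. With library size alone the DU145 medians were -0.094 over all members, -0.094 (base), -0.14 (lid), -0.075 (alpha), -0.13 (beta), 0.021 (activators) and 0.10 (assembly), and the median of all genes was 0.058. Values that changed sign were not called in the reported fit. With library size alone they were IRF1 at -0.000175 in PC3, PSMB6 at 0.048 and PSMF1 at 0.021 in DU145, and PSMB6 at 0.054 between untreated lines, and with at least 10 counts in every sample PAAF1 was at 0.0011 in PC3. With samples left out the ranges in PC3 were -0.042 to 0.13 for IRF1, -0.036 to 0.018 for PAAF1, -0.17 to 0.042 for POMP, -0.12 to 0.048 for PSMA7, -0.14 to 0.023 for PSMB6 and -0.16 to 0.48 for PSMB9. PSMB6 ranged from -0.032 to 0.026 in DU145 and from -0.097 to 0.056 between untreated lines. The log2 ratios ranged from -0.014 to 0.59 (PSMB9 to PSMB6, PC3), -0.017 to 1.46 (PSMB8 to PSMB5, DU145) and -0.53 to 0.038 (PSMB10 to PSMB7, DU145). The causes of these shifts were not tested.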
